A study of Mus musculus with 10 samples.

Results

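The pancreatic acinar secretory genes are 40 genes that code for digestive enzymes, granule proteins, folding factors and transcription factors of the exocrine pancreas. They were matched by gene symbol to the array, with 1 probe set per gene, and 38 of the 40 were measured among 19505 genes in all. The chymotrypsinogen gene Ctrc and the lipase gene Pnlip had no probe set under that name and are not analysed here. The genes were put forward because several of them had been seen high in some control arrays, so the values that set the groups apart are given as a description. Results of the group test for these genes are printed further down, but nothing is read from them.

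Total RNA of complete colon tissue from wild-type C57BL/6 mice was measured on 10 single-colour arrays. All mice of both groups had received 3% DSS (dextran sulfate sodium, which injures the colon epithelium) and an antibody against the checkpoint receptor PD1. In the 5 ECP arrays the mice had also been given donor cells treated by ECP (extracorporeal photopheresis, in which blood cells are loaded with a light-activated drug and irradiated before they are given back), and the 5 control arrays had no such cells. No array of undiseased colon is in the design, the labels give neither age nor sex, and they do not say that each array is a separate mouse. Values are log2 RMA intensities (a background-corrected, quantile-normalised array scale on which 1 unit is a doubling), and "control replicate 4" means the array with that number in its title.

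Acinar cells make up most of the exocrine pancreas. They store inactive proenzymes (zymogens) in granules and release them into ducts that empty into the duodenum, where enteropeptidase activates trypsin and trypsin activates the rest. Their enzyme genes are switched on together by the factor PTF1, which binds an E-box of the form CACCTG beside a second element, TTTCCCA, and holds the subunits Ptf1a and Rbpjl. The colon is not a site of zymogen secretion, although some genes first described in pancreas are also used by its epithelium, such as the lectin gene Zg16 in goblet cells.

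The promoters of these genes were searched for both elements, a property that played no part in choosing them. RefSeq start sites (GRCm38.p6) were found for 32 of the 38 measured genes, and the 250 bases before the start were searched. CACCTG on either strand was present in 19 of 32 (59.4%), against 17.1% of 27025 promoters of the same length. TTTCCCA on either strand was present in 6 of 32 (18.8%, against 6.79%) and TATAAA on the sense strand in 8 of 32 (25%, against 8.12%). Only Cel, Cela3a, Cela2a and Prss2 held both CACCTG and TTTCCCA, and no share over all promoters is given for this pair. Cpa1 and Ctrb1 held TTTCCCA without CACCTG, and Amy2a5 held neither. The 32 promoters include those of related genes, some with shared sequence, so they are not independent of one another. These are matches of letters, not measured binding. The last 150 bases before the start are shown for 6 genes, 5 of them low in all ECP arrays and the sixth, Klk1, also high in colon, with these motifs in capitals (CAGGTG and TGGGAAA are the other strand of the first and second).
Cel (chr2:28563404-28563553, minus strand): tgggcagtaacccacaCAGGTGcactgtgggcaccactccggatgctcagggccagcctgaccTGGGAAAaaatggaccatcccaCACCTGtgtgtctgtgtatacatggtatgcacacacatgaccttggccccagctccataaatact
Cela3b (chr4:137430521-137430670, minus strand): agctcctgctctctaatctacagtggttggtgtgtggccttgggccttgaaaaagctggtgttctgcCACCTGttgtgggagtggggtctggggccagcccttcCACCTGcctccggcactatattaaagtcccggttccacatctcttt
Prss1 (chr6:41458780-41458929, plus strand): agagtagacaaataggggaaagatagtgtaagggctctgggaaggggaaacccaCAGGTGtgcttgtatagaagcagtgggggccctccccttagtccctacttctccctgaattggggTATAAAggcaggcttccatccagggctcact
Try4 (chr6:41302122-41302271, plus strand): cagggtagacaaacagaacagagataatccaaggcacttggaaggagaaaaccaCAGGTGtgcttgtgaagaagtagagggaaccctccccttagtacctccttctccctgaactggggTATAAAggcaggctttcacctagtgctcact
Amy2a5 (chr3:113258700-113258849, minus strand): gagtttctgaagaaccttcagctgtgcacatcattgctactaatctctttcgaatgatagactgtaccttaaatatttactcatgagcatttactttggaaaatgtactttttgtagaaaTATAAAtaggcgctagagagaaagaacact
Klk1 (chr7:44225210-44225359, plus strand): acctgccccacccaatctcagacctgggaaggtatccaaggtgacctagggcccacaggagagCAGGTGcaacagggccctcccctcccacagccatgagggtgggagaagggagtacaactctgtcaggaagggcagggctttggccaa

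In the trypsinogen pair Prss1 and Try4, CAGGTG starts 96 bases and TATAAA 31 bases before the start in each. In Cel, whose product is bile salt-stimulated lipase, CACCTG lies 65 bases and TGGGAAA 87 bases before the start. The kallikrein gene Klk1 holds CAGGTG as well, 87 bases before its start, so the motif is also found in a gene that the colon arrays measured at high level throughout. Amy2a4 and Amy2a2, amylase genes of one cluster with 1 other protein-coding gene between them, have the same base at all 250 positions. Counted without gaps, Amy2a5 matches Amy2a4 at 75 of the 250 positions, and Amy2b matches Amy2a4 at 64. Such a count falls when an annotated start is shifted, so no divergence of these promoters is read from it. Near-identical genes of the amylase and trypsinogen clusters can share probes, so the values of single members of a cluster are uncertain. They are still given gene by gene, and the counts below take each member as 1 gene without allowing for shared probes.

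**Figure D1:**
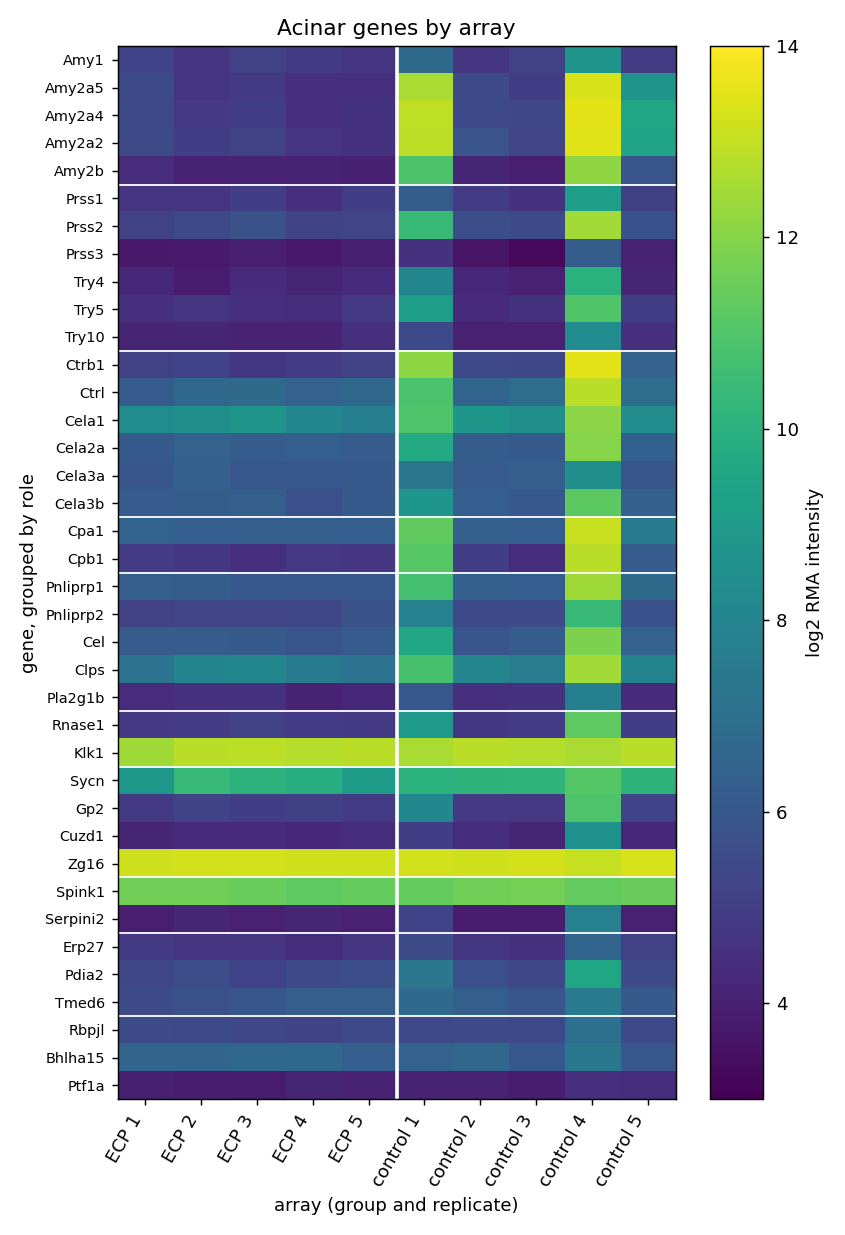
Log2 RMA intensity (colour) of the 38 measured acinar genes (rows, grouped by role) on the 5 ECP and 5 control arrays (columns). Control replicates 1 and 4 are bright for most enzyme genes, control replicate 5 for the Amy2a genes, and Klk1, Zg16 and Spink1 are bright on all 10 arrays.

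The ECP arrays were used to ask which of these genes are low in colitic colon without the large signal. A gene was called low when it lay below the array median of all genes (7.04 to 7.10) on each of the 5 ECP arrays. By this rule 32 of the 38 genes were low, against 46.9% of all genes, 6 were above the median on all 5 arrays and 0 were mixed. Probe sets differ in brightness, so the division is a coarse one. On the low side the nearest gene was the chymotrypsin-like protease gene Ctrl, with 6.19, 6.70, 6.81, 6.46 and 6.69 in ECP replicates 1 to 5, followed by the transcription factor gene Bhlha15 with a highest ECP value of 6.73. On the other side the nearest was the colipase gene Clps, with 7.17, 7.97, 8.07, 7.53 and 7.17. With the 25th percentile of each array in place of the median, 16 genes were low, among them Amy2b, Cpb1, Ctrb1, Prss1, Gp2 and Ptf1a.

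**Figure D2:**
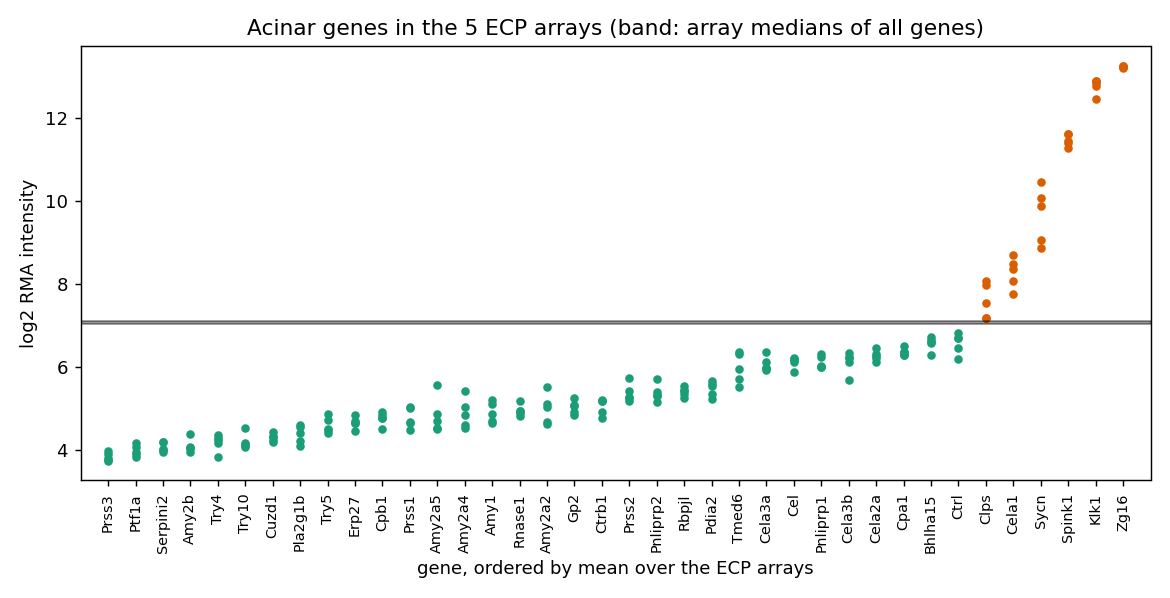
Log2 RMA intensity of each acinar gene on the 5 ECP arrays (1 point per array), ordered by mean, with the array medians of all genes as a band. The 32 genes in green lie below the band on all 5 arrays and the 6 in orange (Clps, Cela1, Sycn, Spink1, Klk1 and Zg16) above it.

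Control replicates 1, 4 and 5 carried the acinar signal, in unequal amounts. Control replicate 4 stood at least 1 log2 unit above the highest ECP array in 32 of the 38 genes (0.677% of all genes did so), control replicate 1 in 26 of 38 (0.169% of all genes) and control replicate 5 in 7 of 38 (0.041%). In control replicates 2 and 3 the count was 0 of 38 (0.0% and 0.00513% of all genes). Counting any distance above 0, it was 35 of 38 for replicate 4 (21.4% of all genes), 31 for replicate 1 (23.1%), 19 for replicate 5 (19.2%), 7 for replicate 2 (16.0%) and 5 for replicate 3 (17.0%). Over the 38 genes, the median distance from the highest ECP array was 4.25 for control replicate 4 and 2.23 for replicate 1. It was 0.02 for replicate 5, -0.09 for replicate 2 and -0.26 for replicate 3, and -0.19 to -0.15 over all genes. Whether acinar cells were more numerous or held more of these RNAs per cell cannot be told apart in bulk tissue. Whether the RNA came from cells within the colon or from pancreatic tissue taken along with it was not tested, and this bears on every high control value below.

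**Figure D3:**
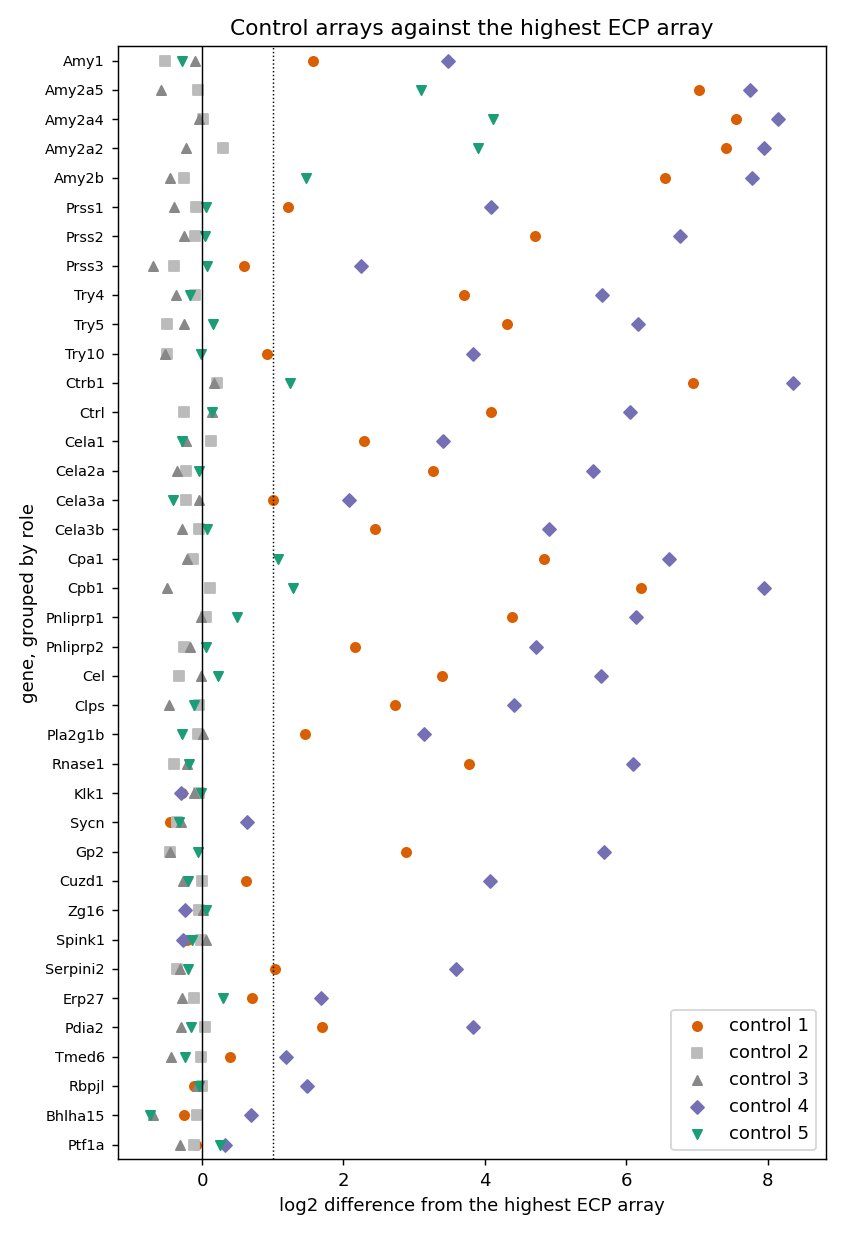
Log2 difference of each control array from the highest ECP array, for each acinar gene (rows, grouped by role). The dotted line marks 1 unit; control replicates 1 and 4 lie right of it for 26 and 32 genes, and control replicate 5 for 7.

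The 5 amylase genes code for enzymes that cleave starch, and 4 of them were high in all 3 of these control arrays. Amy2a4 was at 5.41, 4.84, 5.03, 4.54 and 4.61 in ECP replicates 1 to 5, and at 12.96, 5.43, 5.38, 13.55 and 9.52 in control replicates 1 to 5. Control replicates 1, 4 and 5 lay above every ECP array by 7.55, 8.14 and 4.11 units (187-fold, 282-fold and 17.3-fold). Control replicates 2 and 3 lay 0.02 above and 0.04 below, with means of 9.37 ± 3.93 for the controls and 4.89 ± 0.35 for ECP (SD, n = 5 each). The ECP values of such genes have no detection call here and the control replicate 4 values are near the top of the scale, so these folds, and those of other low genes, may understate the difference. Amy2a5 and Amy2a2 had the same shape, at 8.68 and 9.41 in control replicate 5. Amy2b, at 3.95 to 4.38 in the ECP arrays, reached 10.93, 12.16 and 5.85 in control replicates 1, 4 and 5. Amy1, the amylase of salivary gland and liver, was at 4.64 to 5.21 in the ECP arrays and reached 6.79 and 8.69 in control replicates 1 and 4, but stayed within the ECP range at 4.92 in control replicate 5.

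Trypsinogens, the precursors of the protease that activates the other zymogens, were high in the same 2 arrays. Prss2 was at 5.18, 5.41, 5.73, 5.24 and 5.28 in the ECP arrays and at 10.43, 5.63, 5.48, 12.48 and 5.77 in control replicates 1 to 5. Control replicates 1 and 4 stood 26.1-fold and 108-fold above the highest ECP array, and the other controls were within 0.25 units of it. Try4 reached 8.07 and 10.03, Try5 9.17 and 11.02, and Prss1 6.24 and 9.11 in control replicates 1 and 4. Try10 and Prss3 passed 1 unit in control replicate 4 alone, at 8.35 and 6.23. In control replicate 5 none of the 6 trypsinogens stood more than 0.16 above the highest ECP array.

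Chymotrypsinogen and elastase genes code for further zymogens with other cleavage preferences. Ctrb1 was at 5.19, 5.21, 4.78, 4.91 and 5.18 in the ECP arrays and at 12.15, 5.42, 5.38, 13.57 and 6.46 in the controls. It was the 1 acinar gene for which all 5 control arrays lay above all 5 ECP arrays (0.831% of all genes did so), by 0.17 at the least and 8.36 at the most. Its value in control replicate 4 was the highest of all genes on that array, a place held by the mucin gene Muc2 on every other array except ECP replicate 1. Cela2a reached 9.73 and 11.99 and Cela3b 8.77 and 11.24 in control replicates 1 and 4, against highest ECP values of 6.46 and 6.33. Cela3a showed the smallest distances of this family, 1.01 and 2.08.

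Carboxypeptidases A1 and B1, which trim amino acids from the ends of peptides, stood above the ECP arrays in 3 controls. Cpb1 was at 4.50 to 4.92 on the ECP arrays and at 11.13, 5.03, 4.43, 12.85 and 6.20 in control replicates 1 to 5. Cpa1 was at 6.29 to 6.50 in the ECP arrays and at 11.32, 6.37, 6.28, 13.09 and 7.56 in the controls. Control replicates 1, 4 and 5 were the high ones for both genes.

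Fat-digesting enzymes and their helper followed. Pnliprp1, a relative of pancreatic lipase, was at 5.99 to 6.32 in the ECP arrays and reached 10.70 and 12.45 in control replicates 1 and 4. Cel reached 9.61 and 11.85, Pnliprp2 7.88 and 10.44, and the phospholipase gene Pla2g1b 6.04 and 7.73. In control replicate 5 the 5 measured genes of this group were between 0.28 below and 0.50 above the highest ECP array. The ribonuclease gene Rnase1 had 8.96 and 11.28 in control replicates 1 and 4, against 4.82 to 5.18 in the ECP arrays.

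Granule and endoplasmic reticulum proteins were less even. Gp2, the main glycoprotein of the zymogen granule membrane, was at 4.85 to 5.26 in the ECP arrays and at 8.15, 4.81, 4.81, 10.96 and 5.20 in control replicates 1 to 5. Cuzd1, a granule protein gene, reached 8.50 in control replicate 4 and 5.06 in control replicate 1. The inhibitor gene Serpini2 was at 5.23 and 7.78 in these arrays, and the disulfide isomerase gene Pdia2 at 7.36 and 9.49, both above their highest ECP values of 4.20 and 5.66. Erp27, a partner of protein folding, and Tmed6, a cargo receptor family member, passed 1 unit in control replicate 4 alone, by 1.68 and 1.19 units.

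The 3 transcription factor genes showed little of the signal. Rbpjl was at 5.26 to 5.53 in the ECP arrays and at 5.41, 5.53, 5.46, 7.03 and 5.48 in the controls, with control replicate 4 alone above 1 unit (1.49). Bhlha15, which builds the secretory apparatus of acinar and plasma cells, was at 6.28 to 6.73 in the ECP arrays and at 6.48, 6.65, 6.03, 7.42 and 5.98 in the controls. Ptf1a was at 3.84 to 4.16 in the ECP arrays and at 4.08, 4.05, 3.85, 4.48 and 4.42 in the controls, so the groups overlapped and no array stood 1 unit out. For these low values the array gives no detection call here, and a small rise could not be told from the spread.

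Of the 6 genes above the median in all ECP arrays, Cela1 and Clps were also high in control replicates 1 and 4. Cela1, an elastase gene, was at 8.37, 8.47, 8.69, 8.07 and 7.75 in the ECP arrays and at 10.98, 8.83, 8.47, 12.10 and 8.41 in the controls. Clps, whose product anchors lipase to fat droplets, was at 10.80, 8.01, 7.60, 12.48 and 7.96 in the controls. Both had control replicates 2, 3 and 5 within 0.5 units of the highest ECP array.

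Sycn, Spink1, Klk1 and Zg16 did not pass 1 unit in any control array. These genes were already bright in the ECP arrays, where the same added intensity makes a smaller log2 step. A rise like that of the dimmer genes could therefore be hidden in them. Sycn, which codes for the granule protein syncollin, was at 8.86, 10.45, 10.08, 9.87 and 9.07 in the ECP arrays and at 10.01, 10.09, 10.16, 11.10 and 10.13 in the controls, with control replicate 4 the highest by 0.64. It was the most variable of the 38 genes among the ECP arrays (SD 0.68), and ECP replicates 1 and 5 were lowest for both Sycn and Clps. The trypsin inhibitor gene Spink1 had an ECP mean of 11.47 ± 0.14 and a control mean of 11.51 ± 0.13 (SD, n = 5 each). Klk1, tissue kallikrein, was at 12.77 ± 0.18 and 12.74 ± 0.14 (SD, n = 5 each). Zg16 was at 13.23 ± 0.03 in the ECP arrays and at 13.25, 13.22, 13.29, 13.03 and 13.33 in control replicates 1 to 5, lowest in control replicate 4.

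The order of the 2 highest arrays was the same for every gene that was high in both. In all 26 genes at least 1 unit above the ECP arrays in control replicates 1 and 4, control replicate 4 was the higher, by a median of 1.88 units, from 0.54 for Amy2a2 to 2.87 for Prss1. The 3 Amy2a genes had the narrowest steps (0.54 to 0.73) and lay at 12.60 or more in control replicate 1, where the highest value of any gene was 13.50.

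Control replicate 5 carried a weaker signal, seen in fewer genes. Of the 8 genes on the whole array that stood at least 1 unit above every ECP array, 7 were acinar: Amy2a4, Amy2a2, Amy2a5, Amy2b, Cpb1, Ctrb1 and Cpa1. The eighth was Ly6g6c, named after its values were seen. On the linear intensity scale, the excess over the ECP mean in control replicate 5 was 3.72% to 5.90% of that in control replicate 4 for the 3 Amy2a genes, and -1.75% to 1.27% for the other 23 of the 26 genes. In control replicate 1 this share was also larger for the Amy2a genes, at 60.4% to 68.7%, against 9.21% to 42.5% for the other 23. The control replicate 4 values of several of these genes lie at or near the highest value on that array (13.57), so these percentages are approximate. Whether control replicate 5 differed in its mix of genes or only in amount was not tested.

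**Figure D4:**
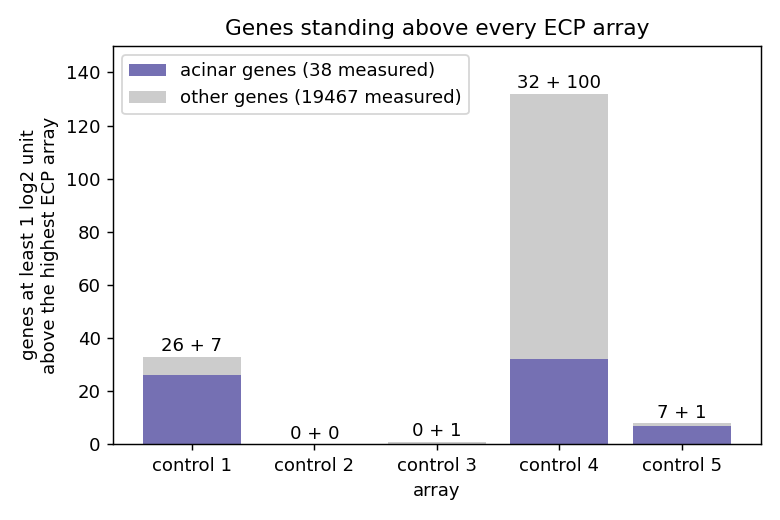
Number of genes on each control array (bars, linear scale from 0) that lie at least 1 log2 unit above the highest ECP array, split into acinar genes and all other genes. Acinar genes are 26 of 33 in control replicate 1, 32 of 132 in control replicate 4 and 7 of 8 in control replicate 5.

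The second-highest control array stood at least 1 unit above the highest ECP array for 33 genes (0.169% of all genes), of which 26 were acinar members. Without control replicate 1 or without control replicate 4 this number of members was 7, and without both it was 0. The other 7 genes were Reg1, Reg2, 2210010C04Rik, Reg3a, Reg3d, Gm10334 and Tff2. Reg1 was at 3.80 to 4.03 in the ECP arrays and at 9.84, 3.89, 3.72, 12.02 and 4.11 in the controls. Reg2 was at 10.09 and 11.80 in control replicates 1 and 4, and both genes code for secreted lectins found in pancreatic juice. 2210010C04Rik had 9.93, 12.15 and 6.76 in control replicates 1, 4 and 5, against 5.92 to 6.12 in the ECP arrays. Reg3a was at 7.51 and 9.33, Reg3d at 7.22 and 9.38, Gm10334 at 6.76 and 8.47, and the trefoil factor gene Tff2 at 7.78 and 9.37 in control replicates 1 and 4. Ranked by that same distance, the next 3 were the insulin gene Ins2 (0.81), the neutrophil gene S100a8 (0.75) and the condensin gene Ncaph (0.70).

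Between the groups as a whole, 35 of the 38 genes had a lower mean in the ECP arrays (46.7% of all genes did), with a median difference of -1.56 against 0.01 over all genes. With limma, 0 of the 38 had an adjusted p under 0.05, as for all genes (0.0%). At an unadjusted p under 0.05 there were 10 of 38, against 5.08% of all genes. All 10 had the lower mean in the ECP arrays (2.77% of all genes were lower at that threshold and 2.31% higher), and all 10 were among the 26 genes high in both control replicates 1 and 4. Because the set was drawn from this contrast, nothing is read from these counts. Ctrb1 differed by -3.54 (SE 1.46), Amy2a4 by -4.48 (SE 1.46) and Prss2 by -2.59 (SE 1.21), with control SDs of 3.95, 3.93 and 3.28 against ECP SDs of 0.20, 0.35 and 0.22.

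Further acinar genes outside the set, taken from a list of 34 of which 26 were measured, were high in fewer cases. On control replicate 4, 7 of the 26 stood at least 1 unit above the ECP arrays (Reg1, Reg2, Reg3d, Aqp12, Tff2, Gnmt and 2210010C04Rik), on control replicate 1 it was 5, and on control replicates 2, 3 and 5 it was 0. The list level was 8.05 and 8.57 in control replicates 1 and 4, against 7.27 to 7.39 in the other controls and 7.27 to 7.33 in the ECP arrays. The list difference was -0.44 by the mean and -0.06 by the median over its genes, the mean being largely that of Reg1, Reg2, 2210010C04Rik and Reg3d, and it was -0.05 without control replicates 1 and 4. Nr5a2, a nuclear receptor of acinar and gut epithelium, was at 9.92 ± 0.09 and 9.93 ± 0.18, and the secreted scavenger receptor gene Dmbt1 at 13.40 ± 0.03 and 13.37 ± 0.04 (SD, n = 5, ECP first), both named after their values were seen.

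Genes of the other pancreatic cell types were mostly at the level of the ECP arrays. Of 16 measured islet genes, Ins2 alone passed 1 unit, in control replicate 4. Ins2 was at 6.41 to 6.89 in the ECP arrays and at 7.69, 6.75, 6.74, 8.80 and 6.36 in the controls. Gcg, the glucagon gene of islets and of gut endocrine cells, ran the other way, at 9.58 and 9.12 in control replicates 1 and 4 against 10.16 to 10.84 in the ECP arrays. The islet list level was 6.09 to 6.21 in the controls and 6.05 to 6.27 in the ECP arrays. The 10 duct genes, led by Krt19 at 12.22 ± 0.05 and 12.17 ± 0.07, are largely shared with colon epithelium, and 0 of them passed 1 unit on any control array.

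Secretory protein folding genes, which acinar cells use heavily and which goblet and plasma cells also express, had levels of 10.26 to 10.52 in the controls and 10.24 to 10.53 in the ECP arrays. Ero1b, an oxidase of the endoplasmic reticulum, was the 1 gene of 20 to pass 1 unit, at 8.21 in control replicate 4 against 6.42 to 6.93 in the ECP arrays. Hspa5, the main chaperone of that compartment, was at 12.47 ± 0.16 and 12.32 ± 0.16 (SD, n = 5).

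Markers of other tissues moved on the same arrays, and their part in the acinar values was not tested. B cell and lymph node genes were high on control replicate 4 (list level 8.27, against 6.35 to 6.54 in the other controls and 6.28 to 7.13 in the ECP arrays), where 11 of 17 passed 1 unit. Cd79a, which carries the signal of the B cell antigen receptor, was at 9.40 there and at 6.59 in control replicate 1, so this signal was not shared by both acinar-high arrays. The list difference was -0.24, and 0.12 without control replicate 4. Of 5 spleen genes, Spic alone passed 1 unit, at 6.32 in control replicate 4, and the spleen list difference was -0.12, or 0.05 without control replicate 4. Smooth muscle genes were lowest in control replicates 1 and 4 (9.21 and 9.59, against 9.93 to 10.10 in the other controls and 9.75 to 10.28 in the ECP arrays), with the smooth muscle actin gene Actg2 at 10.59 and 10.92 there. The smooth muscle list difference was 0.30, and 0.05 without these 2 arrays.

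**Figure D5:**
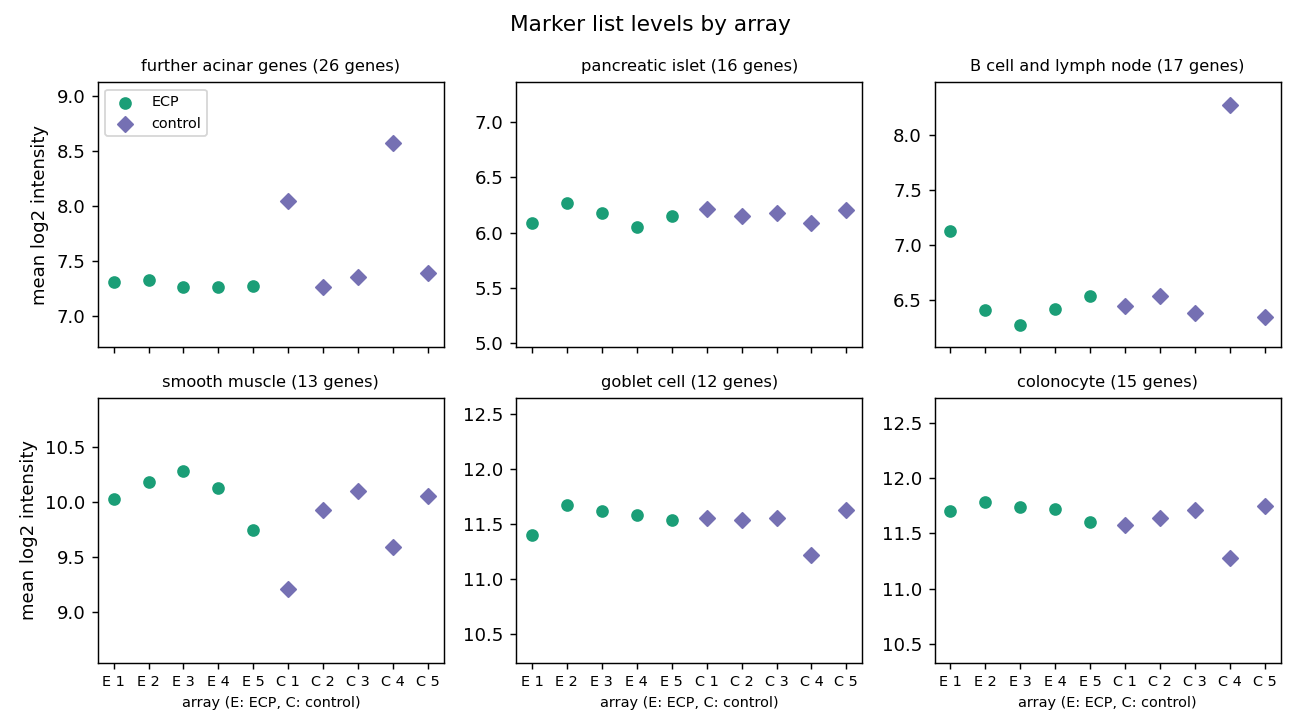
Mean log2 intensity of 6 marker lists on each array (E, ECP; C, control), with an axis of equal length in every panel. The further acinar genes are high in control replicates 1 and 4, the B cell and lymph node list in control replicate 4, and the smooth muscle list is lowest in control replicate 1.

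The label of colon tissue held on every array by its epithelial markers. Goblet cell genes had levels of 11.22 to 11.67 and colonocyte genes of 11.28 to 11.78 over the 10 arrays, each lowest in control replicate 4, where Aqp8 was at 8.44. Slc26a3, the chloride exchanger of colonocytes, was at 12.09 ± 0.23 and 12.09 ± 0.19 (SD, n = 5). Genes of stomach (5.12 to 5.37), liver (6.21 to 6.60) and upper small intestine (6.58 to 7.07) gave list levels in narrow ranges, with 0 genes past 1 unit on any control array, and Alb was at 5.06 ± 0.19 and 5.16 ± 0.12. Fat cell genes were at 6.21 to 6.82 in the controls and 6.46 to 7.13 in the ECP arrays, lowest in control replicate 5. Of the 181 measured genes on these 13 lists, limma called 0 at an adjusted p of 0.05 (0.0% of all genes). At the same unadjusted threshold it called 6, against 5.08% of all genes.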

How the data were processed

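The deposited values are intensities per probe set on a log2 scale, as the authors summarised them. The submitters' processing notes name oligo and RMA for this step, without versions. RMA forces the arrays to one distribution. The table held 22203 probe sets. Of these, 19572 carried a single gene symbol in the platform annotation, and the other 2631, with no symbol or several, were left out. The brightest probe set by mean was kept for each of 19505 genes. Array medians over all 22203 probe sets ran from 6.94 to 6.98, and pairwise correlations over the 19505 genes from 0.976 to 0.995. The number of arrays limits the precision.

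Groups came from the sample titles. The group difference was fitted by limma (version 3.58.1) under R version 4.3.3 for every gene, as a two-sided test by lmFit with eBayes and without covariates or a filter, and p-values were adjusted by Benjamini-Hochberg with 0.05 as the threshold. The fit was tested on simulated data with equal spread in both groups and a shift of every ECP array. The acinar genes have unequal spread and a few high control arrays, so that test does not cover them. Since separate mice are not stated, p-values cover the spread between arrays, which may be technical. A fold is 2 to the power of a log2 difference. Promoters are from RefSeq (GRCm38.p6); 6 measured genes had none in the table. Gene names used are those of the platform annotation.

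Members, marker lists and motifs were chosen with earlier results of these data known. Genes named outside the set are the 10 with the largest distance of the second-highest control array from the highest ECP array, up to 4 per list by size of difference, and defining genes of each tissue; a few others were named after their values were seen, as stated beside them. Alternatives were median centring, renewed quantile normalisation, mean of probe sets, dim genes left out, eBayes with trend and robust options, a replicate block, other cut-offs and left-out arrays.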

Additional observations from a re-analysis of the deposited data

Results flagged for a closer look

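Single arrays stood apart within a group of 5 in 33 of 238 cases by Dixon's test (critical value 0.71), where chance gives about 1 in 20 for groups not chosen by their values. Many of these genes were chosen by their values, and lists were counted along with their own genes, so that rate is no yardstick here. Among the acinar genes these were control replicate 4, high in Sycn (11.10, next 10.16), Cuzd1 (8.50, next 5.06) and Rbpjl (7.03, next 5.53), ECP replicate 1, high in Cpa1 (6.50, next 6.35) and low in Klk1 (12.45, next 12.77), and ECP replicate 5, high in Try10 (4.52, next 4.16). The enzyme genes raised in 2 control arrays were not found by this test in the control group, as the second array narrows the gap that it uses.

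Outside the set, control replicate 4 was high in Blk (8.34), Cd22 (8.61), Cd79a (9.40), Cd79b (8.90), Ms4a1 (9.03, named after its values were seen), Spic (6.32), Ero1b (8.21), the islet gene Iapp (4.73, next 4.02, also named after its values were seen), and the B cell and lymph node (8.27) and spleen (6.57) lists. It was low in Aqp8 (8.44), Muc2 (13.24) and the goblet cell list (11.22). Control replicate 5 was low in Adipoq (4.77) and the fat cell list (6.21), and control replicate 1 was high in Atp4b (6.38).

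ECP replicate 2 was low in Adipoq (6.20), Car3 (6.95), Hp (8.05), Lep (4.48), Retn (5.45) and the fat cell list (6.46). ECP replicate 1 was high in Reg1 (4.03, next 3.86), Slc30a8 (4.43) and Vcam1 (8.08), and low in Mep1a (10.06) and Muc2 (13.39).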

How the results depend on the processing

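The counts by control array kept within 1.5 times under median centring, renewed quantile normalisation and the mean of probe sets. The number of acinar genes low in all ECP arrays was 32, or 16 with the 25th percentile as cut-off. With a distance above 0 in place of 1 log2 unit, the counts were 7, 5 and 19 for control replicates 2, 3 and 5, and with 2 units control replicate 5 had 3. The count for the second-highest control array, 26 with all arrays, ran from 7 to 27 when 1 array was left out, and was 7 without control replicate 1, 7 without control replicate 4 and 0 without both, an alternative chosen after seeing the data. The limma count of 0 over all genes became 1 with trend and robust options, 1 without the lowest quartile of genes (the cyclin gene Ccna2 in each), and 0 to 1 when 1 array was left out (1 without control replicate 3, Cenpf); neither gene is acinar, both were named after their values were seen, and the cause was not tested. With the replicate number as a block (replicate block) it was 0, with 886 genes at an unadjusted p under 0.05 against 991 without it. Deviations of same-numbered arrays correlated at -0.244 to 0.076. These values give no sign that the numbers pair the arrays, but with 5 arrays per group they cannot exclude it.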
